A study of Mus musculus with 18 samples.

Results

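Apoe, Cst3 and 8 further genes were followed that are read as microglial or disease-associated genes in many brain studies but that other brain cells also make. They are the lipid carriers Apoe and Clu, the lipid exporters Abca1 and Abcg1, the lipase Lpl, the receptor Lrp1, the protease inhibitor Cst3, the tetraspanin Cd9, the secreted phosphoprotein Spp1 and the lysozyme Lyz2. They were chosen by name and, like all gene lists used here, with earlier results of these data known. All 10 were matched by Ensembl identifier among the 54547 genes listed, and all 10 were among the 11051 genes with enough counts to be tested. The question put to the data was how much of each was lost on a diet meant to deplete microglia, against a control diet.

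The 18 libraries were made from C57BL6/J mice at postnatal day 100, from their medial prefrontal cortex. Of these, 9 came from animals on a control diet and 9 from animals on chow with PLX5622 at 1200 mg/kg, an inhibitor of the receptor CSF1R, whose signal microglia need to survive. Both diets are labelled with the same treatment text: 21 days of diet, then 44 days of drinking 15% ethanol every other day, with tissue collected 24 hours after the last ethanol. Since controls carry the words on PLX5622 as well, the diet was taken from the titles, and the treatment of a single animal cannot be read from that text. No group without ethanol was compared. Libraries are called by diet and animal number, and they held 990136 to 1742680 counts each. Levels are given as CPM, the counts of a gene per 1000000 counts of its library. Because the library preparation is biased to the 3' end, a level is not scaled by gene length, and levels are compared between libraries and not between genes.

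Apolipoprotein E, made chiefly by astrocytes in healthy brain, carries cholesterol and phospholipid to other cells. The exporters ABCA1 and ABCG1 load lipid onto such particles, and lipoprotein receptors, LRP1 among them, take the particles up. In mouse models of Alzheimer disease, microglia around plaques raise Apoe, Lpl, Cst7, Cd9, Spp1 and Lyz2 while they lower their homeostatic genes, and this state is called disease-associated microglia. In undisturbed cortex several of these genes are carried mainly by astrocytes, neurons, oligodendrocytes or cells of vessels and borders.

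RNA of microglial markers was lower in the PLX5622 libraries, and its fall is the scale against which the 10 genes are read. Of 27 microglial markers 19 could be tested, and all 19 fell, with a median log2 fold change of -1.70, or 30.7% of the control level (edgeR's quasi-likelihood test, calls at a Benjamini-Hochberg adjusted p under 0.05). The falls ran from Fcrls, at 9.28% of the control level, to Golm1, at 58.9%. Between them, among others, came P2ry12, Tmem119, Selplg, Cx3cr1, Siglech, C1qa, Laptm5, Csf1r, C1qb, Vsir, Olfml3, Ctss, C1qc, Ly86, Tyrobp and Sall1. The summed level of the 27 markers was 697 ± 75 CPM in controls, from 628 to 879, and 234 ± 41 CPM with PLX5622, from 174 to 310 (SD, n = 9 each). In bulk tissue, fewer microglia and less RNA per microglial cell cannot be told apart. Trem2 and Itgam were at 0 counts in all 18 libraries, and 99.92% of the span of Itgam is overlapped by another gene on its strand. No gene overlaps Trem2 in the annotation used here. Whether its 0 reflects absent RNA or the way reads were counted was not tested. Markers of astrocytes summed to 4742 ± 143 and 4728 ± 202 CPM, and those of neurons to 8660 ± 186 and 8755 ± 174 CPM. Of the 16 astrocyte and 12 neuronal markers tested, 0 passed the edgeR test and 0 had an unadjusted p under 0.05. The other cell-type lists that held tested genes also gave 0 calls in edgeR. For border macrophages and blood myeloid cells 0 of 12 markers each had enough counts to be tested, so edgeR cannot show whether these lists moved. The border macrophage sum, given below with Lyz2, was lower in all 9 PLX5622 libraries than in every control. At an unadjusted p under 0.05, 2 of 9 tested markers of oligodendrocyte precursors and 1 of 2 of choroid plexus were higher, 1 of 10 endothelial markers was lower, and 0 of 12 myelinating oligodendrocyte, 0 of 6 mural and 0 of 6 meningeal fibroblast markers differed. Myelinating oligodendrocyte markers summed to 1722 ± 279 and 1803 ± 459 CPM and endothelial markers to 452 ± 53 and 429 ± 34 CPM. Choroid plexus markers summed to 206 ± 18 and 220 ± 8 CPM, with all 9 PLX5622 libraries above the control median. The part of these cell types in the levels of the 10 genes was not tested.

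None of the 10 genes passed the test in either direction, and for 9 of the 10 the 95% interval of the fold change lay above the microglial median. The interval of Lyz2 included that median. Fold changes were negative for 9 of 10, against 5522 of all 11051 genes, and their median was -0.16 on the log2 scale, or 89.4% of the control level, against 9.9e-05 for all genes. Of the negative fold changes, those of Apoe, Clu, Lpl and Spp1, at -0.02, -0.01, -0.01 and -0.15 (log2), were smaller in size than their SE. Clu and Lpl changed direction in some settings, so the count of 9 does not show a fall of the whole set. Under the edgeR test 0 of 10 were called lower, where 0.353% of all genes were, and 0 of 10 were called higher, where 0.0452% were. DESeq2 and limma-voom also called 0 of 10. At an unadjusted p under 0.05, 3 of 10 were lower (Abcg1, Cst3 and Lyz2), against 3.22% of all genes, and 0 were higher, against 3.57%. The same shares of all genes stand beside the counts of every list given here. No gene of the 10 had every PLX5622 library below every control library, which 0.199% of all genes did. Summed over the 10 genes, the level was 2658 ± 163 CPM in controls and 2491 ± 153 CPM with PLX5622 (SD, n = 9 each). The difference of the means was -168 CPM, of which Cst3 alone held -127 CPM, so this sum mostly restates Cst3. The p-values weigh the difference between the diets against the spread between these libraries, whose labels give animal numbers but nothing on cages or litters.

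**Figure D1:**
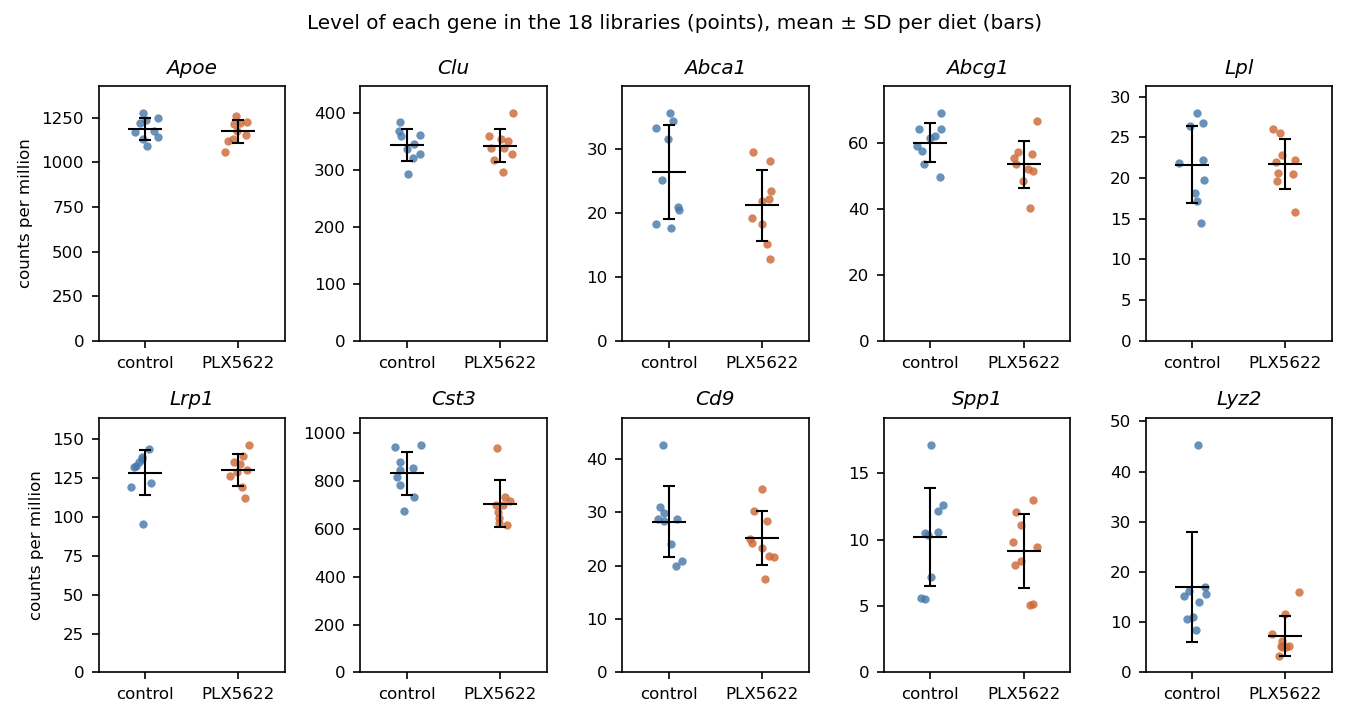
Level of each of the 10 genes in CPM (y axis, from 0, scaled per panel) in the 9 control and 9 PLX5622 libraries (points), with the mean and SD of each diet (bars). Diets overlap in every panel. In the Cst3 panel 1 PLX5622 library sits at 941 CPM above the other 8, and in the Lyz2 panel 1 control library sits at 45.3 CPM.

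The 2 lipid carriers had means within a few percent of those of the controls. Apoe (ENSMUSG00000002985.16) lies on chromosome 7 from 19696109 to 19699188 on the minus strand in the GENCODE M21 annotation of GRCm38, and with 14539 and 14855 counts it was measured most precisely of the 10. Its level in the control libraries ran from 1091 to 1275 CPM with a median of 1177, and in the PLX5622 libraries from 1059 to 1260 CPM with a median of 1174. The 2 diets covered almost the same span, and 5 of 9 PLX5622 libraries lay below the control median. The means were 1189 ± 62 and 1173 ± 63 CPM (SD, n = 9 each), a log2 fold change of -0.02 ± 0.04 (SE, edgeR adjusted p = 0.971). The 95% interval ran from 93.3% to 103.9% of the control level.

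Clusterin, encoded by Clu (ENSMUSG00000022037.15, chromosome 14, 65968483 to 65981547, plus strand), is a secreted chaperone that also travels on brain lipoprotein particles. Control libraries held 293 to 385 CPM with a median of 346, and PLX5622 libraries 297 to 400 CPM with a median of 339. Again the diets overlapped over nearly the whole range. The fold change was -0.01 ± 0.05 (log2, SE, edgeR adjusted p = 0.993), with an interval from 92.6% to 106.2% of control. Among the 7 genes listed as lipid carriers and factors that load or remodel the particles, 5 were tested, and edgeR called 0 in either direction, with 1 lower and 0 higher at an unadjusted p under 0.05. That gene was Pltp, the phospholipid transfer protein, which stood at 52.8 ± 7.7 CPM in controls and 42.7 ± 7.9 with PLX5622, a log2 fold change of -0.33 ± 0.10 (SE, edgeR adjusted p = 0.145). For Lcat, the enzyme that esterifies cholesterol on the particles, the difference was 0.13 (edgeR adjusted p = 0.959).

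The 2 exporters had means below those of the controls, without passing the test. Abca1 (ENSMUSG00000015243.4, chromosome 4, 53030787 to 53159895, minus strand) moves cholesterol and phospholipid across the plasma membrane to apolipoproteins. Its control libraries ran from 17.7 to 35.5 CPM with a median of 25.1, and its PLX5622 libraries from 12.8 to 29.6 CPM with a median of 21.8. Controls were widely spread, and 4 of them lay above every PLX5622 library while the other 5 fell within the PLX5622 range. The fold change was -0.28 ± 0.15 (log2, SE), or 82.6% of control with an interval from 67.1% to 101.5% (edgeR adjusted p = 0.772). With 315 and 272 counts in all, counting error alone gives a coefficient of variation of 17.2% per control library, against 27.7% observed.

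Abcg1 (ENSMUSG00000024030.6, chromosome 17, 31057675 to 31117988, plus strand) passes sterols on to particles that already hold lipid. Levels ran from 49.7 to 69.0 CPM in controls, median 61.4, and from 40.2 to 66.5 CPM with PLX5622, median 53.5. The ranges overlapped, with 8 of 9 PLX5622 libraries below the control median. This gave a fold change of -0.17 ± 0.09 (log2, SE), which is 88.8% of control with an interval from 79.0% to 99.8%, and the edgeR p was 0.0472 before and 0.728 after adjustment. On the list of 7 lipid exporters, all tested, edgeR called 0, and Abcg1 and Abca1 had the smallest p; at an unadjusted p under 0.05, 1 was lower and 0 higher. The median of the list was -0.05 on the log2 scale. Both genes are classical targets of the liver X receptors, which switch on when sterols build up. Of the 5 genes listed for these receptors and their RXR partners 3 were tested, and 0 were called by edgeR or had an unadjusted p under 0.05, with Rxra at 0.11 and Rxrb at -0.07 (log2).

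The 2 genes of lipid uptake had almost equal means in both diets. Lpl (ENSMUSG00000015568.16, chromosome 8, 68880491 to 68907448, plus strand), the lipoprotein lipase, releases fatty acids from lipoproteins and is made by neurons as well as by activated microglia. It ran from 14.5 to 28.0 CPM in controls and from 15.9 to 26.0 CPM with PLX5622, with a median of 21.9 in each diet. The PLX5622 range lay inside the control range. The fold change was -0.01 ± 0.13 (log2, SE, edgeR adjusted p = 0.998), but with 266 and 275 counts the interval was wide, from 82.9% to 119.3% of control.

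Lrp1 (ENSMUSG00000040249.15, chromosome 10, 127538161 to 127621148, minus strand) encodes a large endocytic receptor that binds apolipoprotein E and many proteases. Controls ran from 95.2 to 143.5 CPM, median 133.0, and PLX5622 libraries from 111.9 to 146.4 CPM, median 130.2. The lowest of all 18 libraries was control 8, apart from its group, and the rest of the controls lay within the PLX5622 range. Lrp1 had a fold change of 0.01 ± 0.06 (log2, SE, edgeR adjusted p = 0.997), with an interval from 92.4% to 110.0% of control. Of 18 lipoprotein receptors and their chaperones 14 were tested and edgeR called 0, with 1 lower and 2 higher at an unadjusted p under 0.05. Lrp10 was at -0.34 ± 0.14 (log2, SE, edgeR adjusted p = 0.576). Among 18 lipases and lipid-handling genes 10 were tested, and 0 were called by edgeR or had an unadjusted p under 0.05. The smallest p there were those of the fatty acid binding proteins Fabp3, at -0.16, and Fabp7, at -0.14 (log2). Among those not tested, Cd36 held 11 counts in controls and 1 with PLX5622, Msr1 7 and 1, and Lipe 53 and 29. Plin2 held 34 and 47 and Lipc 6 and 11, Lipg 57 and 58, and Angptl4 29 and 27, while Gpihbp1 was at 0. With so few counts edgeR cannot show whether these moved.

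**Figure D2:**
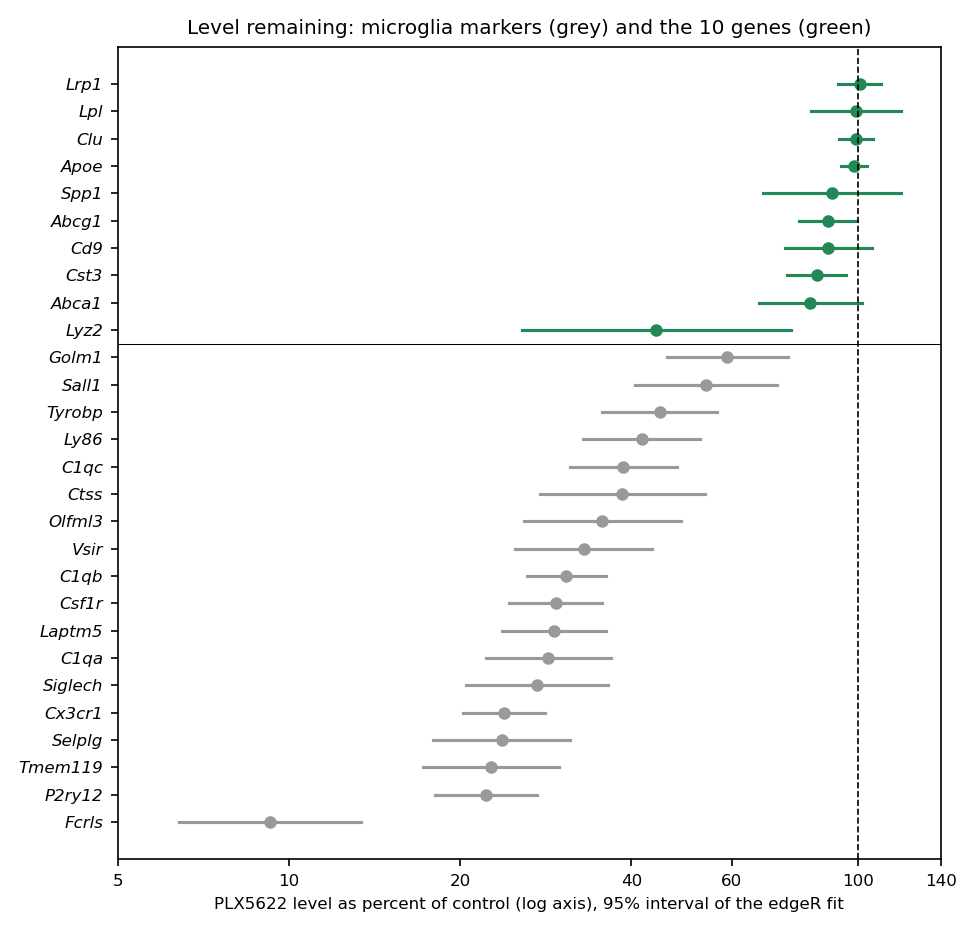
Level with PLX5622 as a percent of the control level (x axis, log scale) for the 10 genes (green, above) and 18 of the 19 tested microglial markers (grey, below), with the 95% interval of the edgeR fit (lines) and a dashed line at equal levels. Apoe, Clu, Lpl and Lrp1 sit near that line, Cst3 at 84.6% and Lyz2 at 44.3%, and the microglial markers run from 9.28% to 58.9%.

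Cst3 differed most clearly among the abundant genes. Cystatin C, its product, is a secreted inhibitor of papain-family cathepsins, and Cst3 (ENSMUSG00000027447.6, chromosome 2, 148871722 to 148875692, minus strand) is expressed by astrocytes as well as by microglia. Control libraries ran from 675 to 952 CPM with a median of 846, and PLX5622 libraries from 616 to 941 CPM with a median of 700. Of the 9 PLX5622 libraries 8 lay below the control median and 4 below every control. The ninth, PLX5622 35, lay at 941 CPM, where the next highest held 736. The means were 833 ± 91 and 706 ± 97 CPM (SD, n = 9 each), a log2 fold change of -0.24 ± 0.08 (SE), which is 84.6% of control with an interval from 75.0% to 95.4%. The edgeR p was 0.00904 before and 0.472 after adjustment over 11051 genes, so Cst3 was not called.

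The call on Cst3 turned on PLX5622 35. Without it the other 8 PLX5622 libraries ran from 616 to 736 CPM with a mean of 677 ± 44 (SD, n = 8). The log2 fold change was then -0.30, or 81.0% of control, and the edgeR adjusted p was 0.000684. With any other single library left out, Cst3 was not called. PLX5622 35 was named because of its own Cst3 level, so the p-value without it is no independent support for a difference. That library also had the highest astrocyte sum, 5180 CPM, and the lowest microglial sum, 174 CPM, of the PLX5622 group, and the part of either in the result was not tested. When the mean of the 16 astrocyte markers was added to the model, a choice made after seeing the data, all 18 libraries gave -0.33 (79.8% of control, edgeR adjusted p = 6.8e-08). Aldoc, an astrocytic glycolytic enzyme and the gene whose pattern was most like that of Cst3, is itself on that marker list. Because the covariate was picked with the values of Cst3 known, this p-value is no independent support for a difference. Across all settings in which a library was left out, the fold change of Cst3 lay between -0.30 and -0.22 (log2).

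Apoe and Cst3 varied together between libraries, so their ratio within a library was also examined, again a choice made after their values were seen. The ratio of Cst3 to Apoe counts ran from 0.619 to 0.773 in controls, median 0.722, and from 0.529 to 0.747 with PLX5622, median 0.584. Of the 9 PLX5622 libraries 6 lay below every control. The mean ratios were 0.700 ± 0.061 and 0.601 ± 0.066 (SD, n = 9 each), a difference of -0.22 on the log2 scale (exact permutation test over 48620 assignments, two-sided p = 0.00527). Leaving out each library in turn gave exact p-values from 0.000617, without PLX5622 35, to 0.0108. Because the pair was picked for the difference already seen between them, these p-values describe that difference and are no independent support for it.

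**Figure D3:**
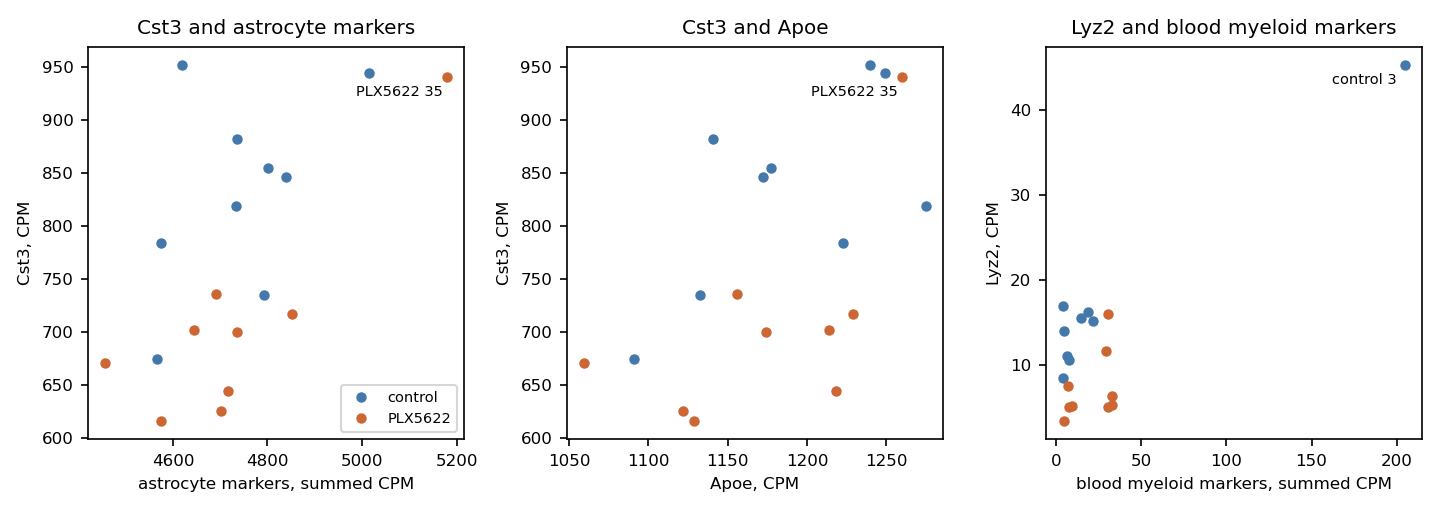
Each point is 1 library (control blue, PLX5622 orange), and all axes are in CPM and do not all start at 0. Cst3 is plotted against the 16 summed astrocyte markers (left) and against Apoe (middle), and Lyz2 against the summed markers of blood myeloid cells (right). PLX5622 35 has the highest astrocyte sum, 5180 CPM, and control 3 the highest Lyz2, 45.3 CPM, and blood myeloid sum, 205 CPM.

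Among 13 cystatins and papain-family cathepsins, the proteases that cystatin C inhibits, 10 were tested. Ctss, cathepsin S of microglia and macrophages, was the 1 gene called: it fell from 69.0 ± 23.1 to 26.1 ± 9.3 CPM, by 1.38 on the log2 scale (SE 0.23, edgeR adjusted p = 0.0063), with all 9 PLX5622 libraries below every control. It is also 1 of the 19 microglial markers above. At an unadjusted p under 0.05, 5 of the 10 were lower and 1 higher, where 3.22% and 3.57% of all genes were. Cst3 itself and Ctss are among the 5. The median of the list was -0.19 (log2).

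Cd9 and Spp1 were measured less precisely, and their diets overlapped widely. Cd9 (ENSMUSG00000030342.8, chromosome 6, 125460266 to 125494791, minus strand) encodes a tetraspanin, a membrane organiser found on oligodendrocytes, vessels and activated microglia. It ran from 19.97 to 42.6 CPM in controls, median 28.7, and from 17.4 to 34.4 CPM with PLX5622, median 24.2. Control 4 was the highest library, apart from the others. The fold change was -0.17 ± 0.13 (log2, SE, edgeR adjusted p = 0.875), with an interval from 74.5% to 105.8% of control, and it was -0.08 without control 4. Of 18 tetraspanins 15 were tested, 0 were called by edgeR and 0 had an unadjusted p under 0.05. Tspan6, at -0.26 (log2), and Cd9 had the smallest p, and the median of those tested was -0.02. The tetraspanins with too few counts to be tested were Cd53, Cd37 and Cd82. Cd53 held 94 counts in controls and 30 with PLX5622, with all 9 PLX5622 libraries below every control. Cd37 held 51 and 22 counts and Cd82 54 and 63, so the tested genes do not speak for the whole list.

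Spp1 (ENSMUSG00000029304.14, chromosome 5, 104435118 to 104441050, plus strand) encodes osteopontin, a secreted ligand of integrins and CD44. Its libraries held 5.52 to 17.2 CPM in controls, median 10.5, and 5.08 to 13.03 CPM with PLX5622, median 9.42, and the PLX5622 values lay almost wholly within the control range. With 123 and 115 counts in all, the fold change was -0.15 ± 0.20 (log2, SE, edgeR adjusted p = 0.958) and the interval ran from 68.0% to 119.0% of control. With 1 library left out the fold change lay between -0.24, without PLX5622 32, and -0.05, without control 7. Gm42793 overlaps 18.75% of the exonic bases of Spp1 on the same strand, and how reads there were assigned is not given in the sources used here. Of the 10 genes listed for osteopontin and its receptors 7 were tested and edgeR called 0, with 1 lower and 0 higher at an unadjusted p under 0.05. Itgb5, the integrin beta 5 subunit that pairs with alpha v, stood at 28.6 ± 4.5 and 20.3 ± 4.7 CPM (SD, n = 9 each), with 8 of 9 PLX5622 libraries below every control. Its fold change was -0.47 ± 0.13 (log2, SE, edgeR adjusted p = 0.079). Itga4 followed at -0.17 (log2, edgeR adjusted p = 0.910).

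Lyz2 had the largest fold change of the 10. Lysozyme M (ENSMUSG00000069516.8, chromosome 10, 117277331 to 117282321, minus strand) degrades bacterial cell walls and is made by macrophages, monocytes and neutrophils and by some microglia. Control libraries ran from 8.49 to 45.3 CPM with a median of 15.2, and PLX5622 libraries from 3.37 to 16.01 CPM with a median of 5.31. Of the 9 PLX5622 libraries 7 lay below every control. The highest control was library 3, with the next at 16.9 CPM, and the highest PLX5622 library was 34. The fold change was -1.18 ± 0.37 (log2, SE), which is 44.3% of control with an interval from 25.7% to 76.2%. On 207 and 95 counts the edgeR p was 0.00574 before and 0.358 after adjustment.

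Without control 3 the other 8 controls ran from 8.49 to 16.9 CPM with a mean of 13.5 ± 3.1 (SD, n = 8), and the log2 fold change was -0.85, or 55.6% of control (edgeR adjusted p = 0.053). Without PLX5622 34 it was -1.43 (edgeR adjusted p = 0.173). Control 3 also stood apart in the summed markers of blood myeloid cells, at 205 CPM where no other control passed 21.5, and it held 271 of 382 control counts of these markers, among them 88 of S100a8 and 105 of S100a9, a pair of neutrophil proteins. Over the groups that list summed to 31.9 ± 65.2 CPM (3.92 to 205) and 20.4 ± 12.8 CPM (4.71 to 33.01), and none of its 12 genes passed the count filter. The order of the diets turned on control 3: without it the controls averaged 10.2 ± 7.1 CPM (SD, n = 8), below the PLX5622 mean, and the medians of all 9 libraries were 7.30 and 29.5 CPM. Markers of border macrophages, of which 0 of 12 passed the filter and Siglec1 was at 0, summed to 29.1 ± 5.7 CPM in controls (21.3 to 40.8) and 7.04 ± 3.02 with PLX5622 (3.37 to 11.7), on 357 and 87 counts. The microglial sum moved with them, as given above. Control 3 was also the highest control for the microglial, border macrophage and endothelial sums, at 879, 40.8 and 576 CPM. The part of each of these cell types in the level of Lyz2 was not tested. Lyz1, a near copy of Lyz2, shares 23.3% of the 40-base windows of its longest transcript. It held 0 counts in controls and 2 with PLX5622, and since the handling of reads that fit both genes is not stated, the level of Lyz2 is uncertain to that extent.

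The wider list of disease-associated microglia genes had a median near that of all genes, but more of them were lower than higher at an unadjusted p under 0.05. Of 32 genes on that list, which holds 6 of the 10 followed here, 22 were tested, 1 was called lower and 0 higher by edgeR, and the median log2 fold change was -0.04, or 97.6% of control. At an unadjusted p under 0.05, 6 were lower, Cst3 and Lyz2 among them, and 1 higher, where 3.22% and 3.57% of all genes were. The edgeR test called 0.353% of all genes lower. The gene called was Tyrobp, the adaptor that signals for TREM2, which fell from 20.1 ± 3.8 to 9.08 ± 2.85 CPM, to 44.8% of control, with all 9 PLX5622 libraries below every control; it is also on the microglial list. Trem2 itself was at 0 in both diets, as stated, so its level cannot be compared between them.

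The 10 genes did not move as one between animals. After the mean of each diet was subtracted, Pearson correlations of log2 CPM over the 18 libraries ran from -0.49 for Apoe with Lyz2 to 0.64 for Apoe with Cst3. Abca1 with Lyz2 followed at 0.54, Abcg1 with Spp1 at 0.51 and Apoe with Clu at 0.46. Measured in the same way, the genes most like Apoe were Pfas at 0.87, Cck at 0.78 and Cmtm3 at 0.78, and those most like Cst3 were Aldoc at 0.89, Vps36 at 0.81 and Vsnl1 at 0.81. Clu was most like Fbxo31 at 0.85, Tctn2 at 0.80 and Bag6 at 0.77, Abcg1 most like Hipk3 at 0.83, Ace at 0.80 and Usp12 at 0.76, and Lrp1 most like Cbx8 at 0.83, Gm6563 at 0.81 and Vstm2b at 0.79. The values compared come from the same libraries and share their depth, each gene was picked as the highest among all those tested, and the correlations are descriptions.

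**Figure D4:**
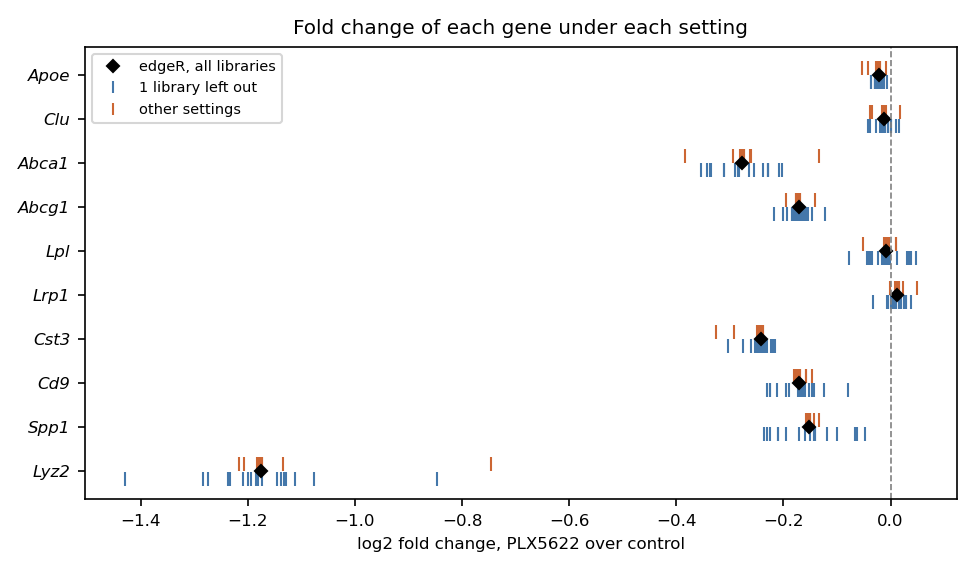
Log2 fold change of each gene, PLX5622 over control (x axis), with all libraries in edgeR (black), with 1 library left out (blue, below the line of each gene) and under the 11 other settings (orange, above it). Apoe, Clu, Lpl and Lrp1 stay close to 0, Cst3 stays between -0.33 and -0.22, and Lyz2 ranges from -1.43 to -0.75.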

How the data were processed

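Total RNA of the medial prefrontal cortex was sequenced from the 3' end as single ends in 18 libraries, per the labels. Each library has 1 table of raw counts by gene, used as the authors deposited it. Builds mm10 and GRCm38.p6 are named in the submitters' processing notes, along with R 3.5.1, DESeq2 1.10.1, HTSeq 0.11.0, Bowtie2 2.3.4.3 and FastQC 0.11.8. What each tool was used for, its strand setting, the feature it counted and the annotation release were not given in the sources used here, so reads shared by overlapping or near-identical genes could be placed differently. Identifiers were matched to GENCODE M21 without regard to version (53706 of 54547). No exon or UTR can be named, since counts are per gene.

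Libraries were grouped by the diet in their titles. No library was taken as a duplicate among 153 pairs (lowest chi-square per degree of freedom 1.129, at a minimum of 20 counts per gene), and every library was counted as its own replicate. Depth was 990136 to 1742680 counts, median 1384979. CPM are relative to the total of a library. Standard errors and 95% intervals were derived from edgeR's F statistic and its degrees of freedom. Genes were tested with edgeR 4.0.16 in R 4.3.3 (filterByExpr with minimum count 10 and minimum total 15, TMM scaling, robust quasi-likelihood fit, Benjamini-Hochberg adjustment over 11051 genes, calls at an adjusted p under 0.05). Log2 CPM for correlations and the astrocyte covariate carry a prior count of 2. Exact permutation tests were two-sided.

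The 10 genes and all lists were chosen with earlier results of these data known, so their patterns are not independent evidence. The text names all 10 genes, every microglial marker called, from each pathway list every gene called or else the 2 tested genes with the smallest p, and the 3 genes most like each of the 10 that had a mean of at least 50 counts. A small number of genes that meet this rule are not reported here. The ratio of Cst3 to Apoe, the astrocyte covariate and the fit without control 3 and PLX5622 35 were chosen after seeing the data, as were the names of the libraries that stand apart. Alternatives were DESeq2 1.42.0, limma-voom (limma 3.58.1), other scalings and count filters, thinning to the smallest library, the rank of the animal number as a covariate, and leaving out each library. Tables and figures were made with pandas 2.3.3, numpy 2.4.6 and matplotlib 3.10.9.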

Additional observations from a re-analysis of the deposited data

Results flagged for a closer look

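In 42 groups of 9 libraries, the 10 genes and 11 marker sums in each diet, the highest or lowest library was compared with its nearest neighbour by Dixon's gap test, and 7 groups had a library beyond the 95% critical value. Chance flags about 1 in 20 groups. Control 3 accounted for 3 of the 7: Lyz2 at 45.3 CPM where the next control held 16.9, the summed microglial markers at 879 CPM against 739, and the summed blood myeloid markers at 205 CPM against 21.5. PLX5622 35 held Cst3 at 941 CPM against 736 in the next PLX5622 library. Control 4 held Cd9 at 42.6 CPM against 31.0, and control 8 was low for Lrp1 at 95.2 CPM against 119. PLX5622 27 had summed mural cell markers of 275 CPM against 227. The fold changes of Cst3, Lyz2 and Cd9 without these libraries are given with each gene. Without control 8 the mean of Lrp1 in controls was 132.7 ± 8.2 CPM (SD, n = 8). What set these libraries apart was not tested.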

How the results depend on the processing

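No paired analysis was possible because the animal numbers of the diets do not overlap. The 10 genes gave 0 calls in all settings except 3, in each of which Cst3 was the 1 gene called: without PLX5622 35 (0 to 1 over the libraries left out), with the astrocyte covariate, and without control 3 and PLX5622 35 together. Direction changed only in genes with fold changes near 0. Clu reached 0.017 without control 3 and PLX5622 35 and ran from -0.042 to 0.016 when 1 library was left out. Lpl was at 0.011 with limma-voom and 0.010 after thinning, and ran from -0.077 to 0.048. Lrp1 was at -0.00098 with the astrocyte covariate, and ran from -0.033 to 0.038 (all log2). Over the 11 other settings Lyz2 lay between -1.22 and -0.75 where it could be fitted, and Abca1 between -0.38 and -0.13. Over all genes, edgeR called 39 lower and 5 higher. The lower count was 65 with DESeq2, 92 without a count filter and 8 at a mean of at least 50 counts, and 38 to 50 with 1 library left out. The higher count was 20 without a filter, 0 at a mean of at least 50 counts (214 at an unadjusted p under 0.05), 17 with the animal number as a covariate, 0 without control 3 and PLX5622 35 (286 at an unadjusted p under 0.05), and 2 to 13 with 1 library left out. The causes of these shifts were not tested. The 95% intervals of Abca1, Abcg1, Lpl, Cd9 and Spp1 include the fold change of Cst3. For Lyz2 the control libraries varied by 64.6% (coefficient of variation), where counting error alone gives 23.1%.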
